A study of Mus musculus with 6 samples.

Results

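The genes described here are 8 surface receptors and markers of blood stem cells and multipotent progenitors: Kit, Flt3, Cd34, Cd93, Prom1, Ly6a, Slamf1 and Procr. They were measured in sorted early thymic progenitors, which stand at the start of T-cell development. Every probe set that the platform annotation of the Affymetrix mouse array assigns to 1 of these symbols alone was taken. This gave 14 probe sets of 7 genes, among 45037 probe sets and 18193 genes in all. Ly6a, which encodes the stem-cell antigen Sca-1, had no probe set assigned to it alone and was not analysed here. The study asked what early thymic progenitors express when Tcf1, a DNA-binding factor of the Wnt pathway encoded by Tcf7, is inactivated. One group held 3 arrays of Tcf1-/- mice, the other 3 arrays of Tcf1-/+ mice, whose genotype field reads wild type although their titles read Tcf1-/+. All mice were C57Bl/6, 10 weeks old, and all cells came from 1 sort gate of the thymus, Lin-CD44+CD25-kit+, called DN1. About 3 ng of RNA was obtained from 1000 cells on average and was amplified before labelling. Arrays of a group are titled biological replicates, and how many animals gave each is not said, so the spread between arrays is what each test measures. The part of Tcf7 that is disrupted and the cells in which it is lost are not given in the sources used here.

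Progenitors that seed the thymus carry growth factor receptors at their surface that are lost as the cells commit to the T lineage. Kit is the receptor of stem cell factor and Flt3 the receptor of Flt3 ligand. Both are receptor tyrosine kinases of the same class and act through adaptor proteins, PI3 kinase and STAT5. Cd34 is a sialomucin, Cd93 a C-type lectin-like glycoprotein once used as the AA4.1 antigen of fetal progenitors, and Prom1 a pentaspan membrane protein known as CD133. Slamf1, or CD150, marks long-lived stem cells, and Procr is the endothelial protein C receptor, which these cells also carry. Kit is part of the sort gate, so every cell measured here was chosen for Kit protein, while the array reads RNA.

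Tcf1 binds DNA at a core of the letters CTTTGA, and this was searched in the sequence from 250 bases before to 50 bases after each annotated start, on both strands. The RefSeq table of the mouse build GRCm38.p6 held such sequences for 6 of the 8 genes. The sequences of Flt3 and Cd34 are shown because these were the members whose genotypes did not overlap on the arrays, and that of Kit because it defines the sort gate. Capitals mark the core or its reverse complement TCAAAG. The Flt3 sequence lies on the minus strand at chr5:147400440-147400739, that of Cd34 on the plus strand at chr1:194938571-194938870, and that of Kit, for the first of its neighbouring starts, on the plus strand at chr5:75574737-75575036. Each is written 5′ to 3′.
Flt3: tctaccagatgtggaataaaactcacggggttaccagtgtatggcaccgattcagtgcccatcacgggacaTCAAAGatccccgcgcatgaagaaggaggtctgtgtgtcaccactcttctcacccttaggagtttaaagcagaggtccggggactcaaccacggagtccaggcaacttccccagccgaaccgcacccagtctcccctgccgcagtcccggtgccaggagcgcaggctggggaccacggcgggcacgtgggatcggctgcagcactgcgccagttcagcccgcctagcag
Cd34: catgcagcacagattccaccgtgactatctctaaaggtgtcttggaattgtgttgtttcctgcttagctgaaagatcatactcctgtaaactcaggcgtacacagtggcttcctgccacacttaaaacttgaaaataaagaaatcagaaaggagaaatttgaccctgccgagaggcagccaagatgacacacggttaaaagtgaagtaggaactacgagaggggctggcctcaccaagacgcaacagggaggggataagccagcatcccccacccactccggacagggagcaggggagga
Kit: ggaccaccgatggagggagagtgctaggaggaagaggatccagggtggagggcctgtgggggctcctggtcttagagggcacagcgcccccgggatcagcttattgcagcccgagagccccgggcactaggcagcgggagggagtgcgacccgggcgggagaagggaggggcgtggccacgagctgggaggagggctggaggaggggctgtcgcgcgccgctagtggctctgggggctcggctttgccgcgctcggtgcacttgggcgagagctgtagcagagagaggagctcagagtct
The Flt3 sequence held the core once, as TCAAAG beginning at position -179 from the start. The Cd34 and Kit sequences did not hold these letters, and neither did those of Slamf1 and Procr. A second annotated start of Prom1 held CTTTGA at position 9 after it. The core was present in 16% of the 32851 sequences of this length that were searched, which did not cover every chromosome. Its presence before Flt3 is therefore a description of the letters alone.

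One array differed from the others. Tcf1-/- replicate 2 correlated with the other 5 arrays between 0.870 and 0.893 over all probe sets, and each array's highest correlation with another was between 0.928 and 0.933 for the remaining 5. On it the 3'-end control of Tfrc exceeded the 5'-end control by 0.055 log2 units, against -1.08 to -0.62 elsewhere. The Gapdh controls did not set it apart, with 2.78 there and 1.74 to 2.885 elsewhere.

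All 7 measured genes had a lower mean in Tcf1-/- than in Tcf1-/+, on the log2 scale and on the probe set of highest mean for each gene. Over all genes, 45.7% had a lower mean. The members were chosen with earlier results of these data known, so their count is a description only. The differences ran from -1.53 for Flt3 to -0.42 for Slamf1 with a median of -1.24, where the median over all genes was 0.036. Without Tcf1-/- replicate 2 these medians were -0.58 and 0.0081. Prom1 had both means under the background level of 5.21, and Procr and Slamf1 had their Tcf1-/- mean under it. No member passed limma's threshold, an adjusted p of 0.05 over all probe sets, and neither did any of the 45037 probe sets (0%), of which 2917 (6.48%) had an unadjusted p under 0.05. Flt3 and Cd34 had an unadjusted p under 0.05 and lower Tcf1-/- values, 2 of 7 against 3.4% of all genes lower and 3.38% higher at that p. The same 2 genes were lower on every Tcf1-/- array than on every Tcf1-/+ array, against 4.94% of all genes lower and 7.22% higher in that way. With 3 arrays against 3, an exact permutation test cannot give a p below 0.1. Of the 14 probe sets, 12 had lower and 2 had higher Tcf1-/- means, where 47% of all probe sets had lower ones. Probe sets of 1 gene read the same RNA, so the 14 are not independent, and 3 had both means under background. Bulk arrays cannot tell fewer cells of a type from less RNA per cell.

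**Figure D1:**
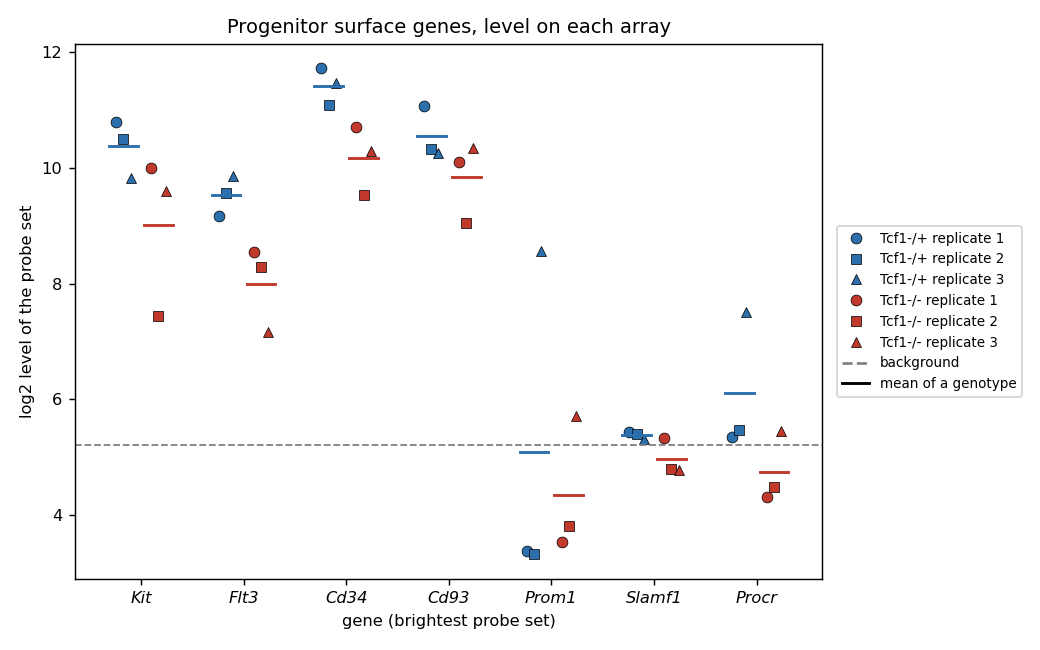
Log2 level of the brightest probe set of each of the 7 measured genes on each array, with Tcf1-/+ in blue, Tcf1-/- in red, a symbol for each replicate number and a bar at the mean of each genotype. The dashed line is the background level of 5.21. The genotypes are apart for Flt3 and Cd34 alone, Tcf1-/- replicate 2 is the lowest point of Kit, and Tcf1-/+ replicate 3 is the highest of Prom1 and Procr.

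Over all 6 arrays, Flt3 had the largest difference of the members on their brightest probe sets. Its log2 level was 8.54, 8.29 and 7.17 on Tcf1-/- replicates 1, 2 and 3. It was 9.17, 9.56 and 9.86 on the corresponding Tcf1-/+ arrays. Every Tcf1-/- array lay below every Tcf1-/+ array, and the lowest value came from Tcf1-/- replicate 3 and not from replicate 2. The means were 8.0 ± 0.73 (SD, n = 3) and 9.53 ± 0.35 (SD, n = 3), which is 2.89-fold lower in Tcf1-/-. The difference of -1.53 had a 95% confidence interval of -2.55 to -0.52 and a limma adjusted p of 0.598. Of the 18193 genes, 240 (1.32%) had a lower difference than Flt3. Without Tcf1-/- replicate 2 the difference was -1.68 (interval -2.91 to -0.44). The order among the members depended on the arrays. With 1 array left out, Flt3 had the largest difference only without Tcf1-/- replicate 2. It was -1.12 without Tcf1-/- replicate 3, against -1.72 for Procr and -1.66 for Kit.

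Kit was read by a pair of probe sets, both designed to match several transcripts of the gene, and they differed in size. On the brighter one the log2 level was 9.99, 7.45 and 9.60 for Tcf1-/- and 10.8, 10.5 and 9.83 for Tcf1-/+. Replicate 2 was far below the other Tcf1-/- arrays, while replicate 1 lay above the lowest Tcf1-/+ array, so the genotypes overlapped. The difference was -1.36 with an interval of -3.09 to 0.37, and an adjusted p of 0.840 from limma. Without Tcf1-/- replicate 2 it was -0.58 (interval -1.51 to 0.35). On the other probe set the levels were 8.24, 7.20 and 8.47 in Tcf1-/- and 8.34, 8.60 and 8.79 in Tcf1-/+. Replicate 2 was again the lowest array and replicate 3 overlapped with Tcf1-/+. Here the difference was -0.61 (interval -1.53 to 0.31), and -0.22 without that replicate. The size of the Kit difference therefore rested on 1 array on both probe sets.

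Cd34 was lower in Tcf1-/- with no overlap. Its log2 level was 10.7, 9.54 and 10.3 for Tcf1-/- and 11.7, 11.1 and 11.5 for Tcf1-/+. The highest Tcf1-/- array was replicate 1, and it still lay under the lowest Tcf1-/+ array. The means were 10.2 ± 0.59 (SD, n = 3) and 11.4 ± 0.32 (SD, n = 3), 2.37-fold lower in Tcf1-/-. The difference was -1.24, with an interval of -2.12 to -0.37 and an adjusted p of 0.623 from limma. Without Tcf1-/- replicate 2, its lowest array, it was -0.93 (interval -1.67 to -0.18), and the genotypes were still apart.

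Cd93 had 5 probe sets, more than any other member, and 4 of them had lower Tcf1-/- means. On the brightest the level was 10.1, 9.05 and 10.4 for Tcf1-/- and 11.1, 10.3 and 10.3 for Tcf1-/+. Replicate 3 of Tcf1-/- lay above 2 of the Tcf1-/+ arrays. The difference there was -0.72 (interval -1.74 to 0.31), and it was -0.32 without Tcf1-/- replicate 2 and -0.46 without Tcf1-/+ replicate 1. On the others it was -0.83, -1.27, -0.50 and 0.13, and every interval included 0. That of -1.27 was -0.83 without Tcf1-/- replicate 2, and that of -0.50 lay between -1.09 and -0.037 when 1 array was left out. The probe set at 0.13 carries the suffix that Affymetrix gives to probes that may also match other genes. Those used below for Adgrg1, Egfl7 and Ola1 carry it too. Another suffix, for probes shared by several transcripts, which need not be of 1 gene, is on the probe set at -1.27. The probe sets used for Procr, F2r, S100a8, Ighm, Bfar and Pde2a carry that suffix as well. The probe set at 0.13 was the dimmest of the 5, with means of 5.68 and 5.55, and 2 of its arrays lay under background. On each of the 5 probe sets Tcf1-/- replicate 3 was the highest Tcf1-/- array, and on each the genotypes overlapped.

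**Figure D2:**
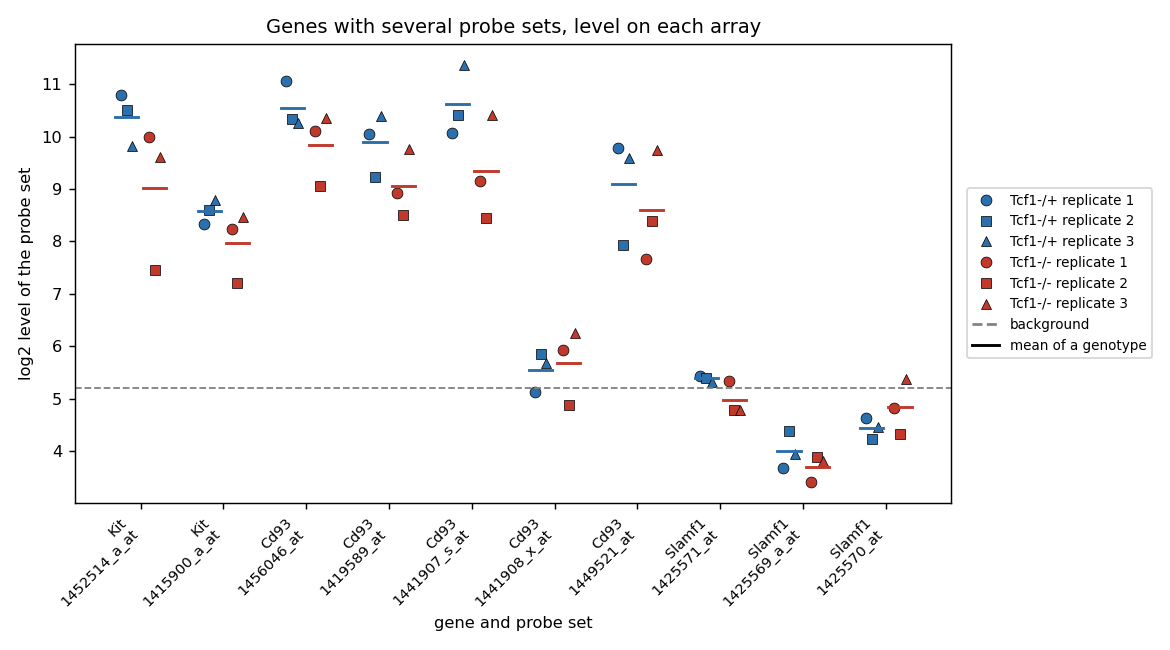
Log2 level on each array of the 10 probe sets of Kit, Cd93 and Slamf1, with the symbols, colours, bars and dashed background line (5.21) as for the plot of brightest probe sets. Genotypes overlap on each of the 10, and the dimmest Cd93 probe set and the 3 of Slamf1 lie close to the background line.

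Prom1 and Procr differed from the genes above in that a single array set the Tcf1-/+ mean. Prom1 was at 3.39 and 3.32 on Tcf1-/+ replicates 1 and 2 and at 8.56 on replicate 3. The Tcf1-/- arrays were at 3.54, 3.80 and 5.70. Only Tcf1-/+ replicate 3 and Tcf1-/- replicate 3 were above background, so the means of Tcf1-/+ (5.09) and Tcf1-/- (4.35) both lay under it and the size of the difference, -0.74, is not well measured. Without Tcf1-/+ replicate 3 the sign turned, to 1.00, and with any other array left out the difference lay between -1.62 and -0.34. Procr was at 5.36, 5.47 and 7.52 on the Tcf1-/+ arrays and at 4.31, 4.48 and 5.46 on the Tcf1-/- arrays. The Tcf1-/+ replicate 3 array was again the highest, and Tcf1-/- replicate 3 lay between Tcf1-/+ replicates 1 and 2. The Procr difference was -1.36 (interval -2.99 to 0.26, adjusted p of 0.827 from limma) with a Tcf1-/- mean of 4.75, under background. It was -0.66 without Tcf1-/+ replicate 3, and -0.82 with values under background set to that level, so its size is not well measured either.

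On the array with high Prom1 and Procr, markers of other lineages also stood apart from the other Tcf1-/+ arrays. The mean log2 level of 6 erythroid markers was 7.06 there, against 4.47 and 4.81. That of 8 myeloid markers was 8.51, against 6.49 and 6.41. In Tcf1-/- the erythroid list was at 7.41, 5.60 and 7.52 and the myeloid list at 7.66, 7.45 and 8.85. Tcf1-/- replicate 1 thus had the erythroid list high and Prom1 at 3.54. Hba-a1 of the erythroid and Itgam of the myeloid list were under background on all 6 arrays. The mean of 11 endothelial markers, a lineage that also carries Cd34, Cd93 and Procr, was between 5.80 and 5.90 in Tcf1-/+ and between 5.85 and 5.99 in Tcf1-/-. Cdh5, Emcn and Tie1 of that list were under background on all 6 arrays, and 5 of the 11 had both means under it. Single genes varied more than the list mean. Esam ran from 5.28 to 8.14 and Pecam1 from 7.55 to 9.80. The part of the erythroid and myeloid signals in the Prom1 and Procr values was not tested.

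**Figure D3:**
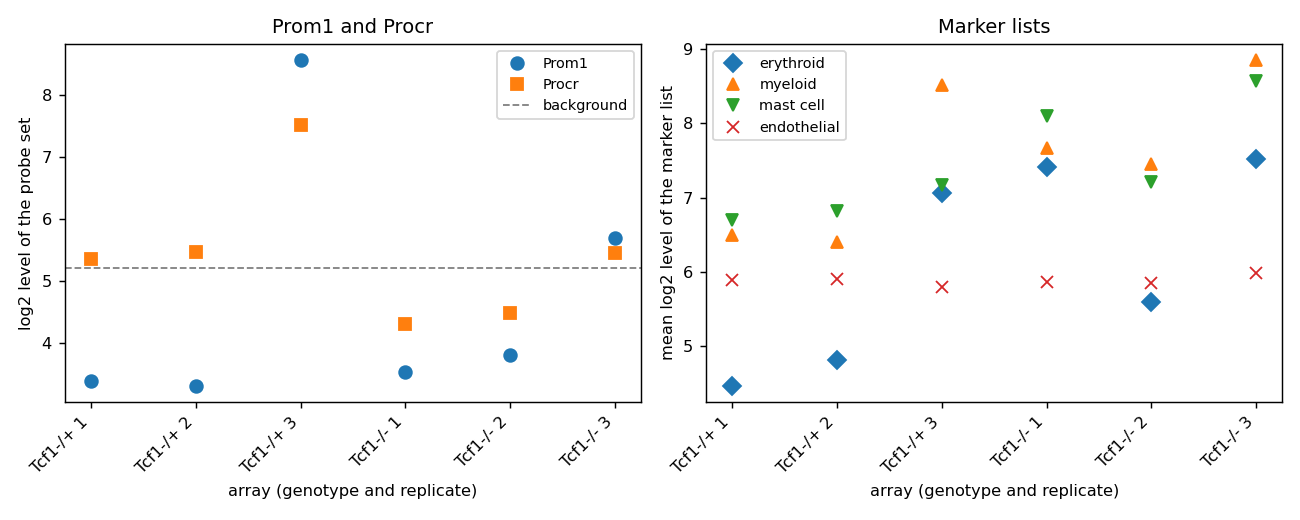
Left, log2 level of Prom1 and Procr on each array with the background level of 5.21 dashed; right, mean log2 level of the erythroid, myeloid, mast cell and endothelial marker lists on the same arrays. Prom1 and Procr are highest on Tcf1-/+ replicate 3, at 8.56 and 7.52, where the erythroid and myeloid lists are above the other Tcf1-/+ arrays.

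Slamf1 was near or under background throughout. On its brightest probe set the level was 5.33, 4.79 and 4.78 for Tcf1-/- and 5.44, 5.40 and 5.32 for Tcf1-/+. The arrays of Tcf1-/+ lay close together, and Tcf1-/- replicate 1 lay among them. The Tcf1-/- mean of 4.97 lay under background, so the size of the difference, -0.42 (interval -0.97 to 0.14), is not well measured. With values under background set to that level it was -0.13. The other 2 probe sets had both means under background, so no difference is given for them.

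Without Tcf1-/- replicate 2 all 7 means were lower in Tcf1-/-, with a median of -0.58. Without Tcf1-/+ replicate 3 they were lower for 6 of 7, Prom1 being the exception, with a median of -0.86. The median of the 7 genes after centring each gene was -0.10, -0.95 and -0.09 on Tcf1-/- replicates 1, 2 and 3. The Tcf1-/+ values were 0.40, 0.22 and 0.67. Replicate 2 was thus the lowest array for the set, and the other Tcf1-/- arrays were also below each Tcf1-/+ array. Flt3 was the 1 member among Kit, Flt3, Cd34, Cd93, Prom1, Procr and Slamf1 with a more negative difference after that array was left out.

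**Figure D4:**
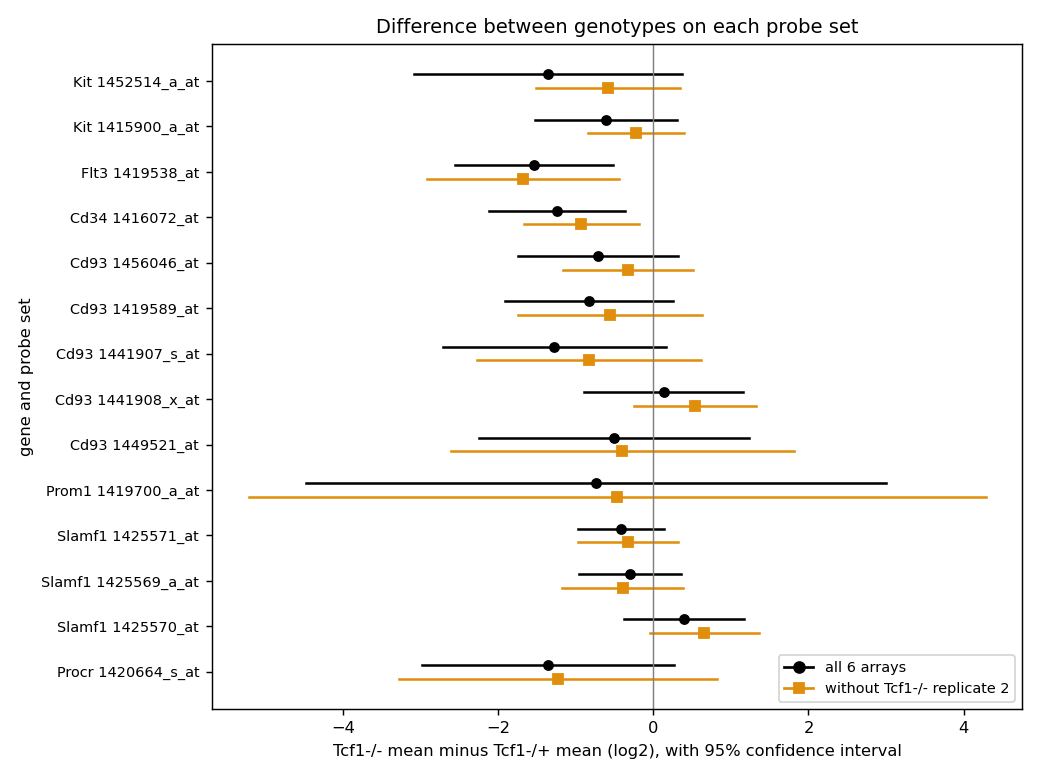
Tcf1-/- mean minus Tcf1-/+ mean (log2) of each of the 14 probe sets with its 95% confidence interval from limma, over all 6 arrays (black) and without Tcf1-/- replicate 2 (orange). The intervals of Flt3 and Cd34 lie below 0 in both, and those of the other 12 probe sets include 0 in both.

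Ligands and relatives of the receptors had differences of either sign. Of the other class members and ligands measured (4 of 5 listed), 1 had a lower and 3 had higher Tcf1-/- means. Csf1r, the receptor of the macrophage growth factor, was at 10.6, 6.64 and 10.1 for Tcf1-/- and at 11.1, 9.35 and 11.8 for Tcf1-/+. Like Kit it was lowest on Tcf1-/- replicate 2, and its difference was -1.63 (SE 1.19) over all arrays and -0.40 without that array. Of its other 2 probe sets 1 had a higher Tcf1-/- mean. Pdgfrb differed by 0.66 (SE 0.31) and no difference is given for Pdgfra, whose means were both under background. Kitl, the ligand of Kit, chosen after its values were seen, had a mean of 5.58 in both genotypes.

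Signalling genes downstream of Kit and Flt3 were evenly divided. Of 25 measured, 12 had lower and 13 higher Tcf1-/- means, with a median of 0.011, and 0 passed limma's adjusted threshold. An unadjusted p under 0.05 was reached by 1, Socs6, against 3.4% of all genes lower and 3.38% higher. Socs6 is a negative regulator that binds Kit. It was at 6.43, 6.89 and 7.01 for Tcf1-/- and at 8.10, 8.38 and 7.05 for Tcf1-/+, a difference of -1.07 (SE 0.40) without overlap, although its other 2 probe sets disagreed in sign. Sh2b3, the adaptor Lnk that restrains cytokine receptor signalling, differed by -1.16 (SE 0.48), and by -0.70 without Tcf1-/- replicate 2. Dok1, a docking protein, differed by 0.76 (SE 0.31), and genotypes overlapped for Sh2b3 and Dok1. With Map2k1 and Nras, 3 of the 25 genes were lower and 0 higher without overlap, against 4.94% and 7.22% of all genes.

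Other surface genes of stem cells and progenitors were also mixed. Of 19 measured, 9 had lower and 10 higher Tcf1-/- means, with a median of 0.054. Of these, 3 were lower and 2 were higher without overlap, against 4.94% of all genes lower and 7.22% higher in that way. Adgrg1, an adhesion receptor of stem cells, was at 9.51, 8.68 and 9.47 for Tcf1-/- and at 11.7, 11.0 and 10.2 for Tcf1-/+. No array overlapped, and the difference was -1.73 (SE 0.45), with an adjusted p of 0.585 from limma and the same sign on its other probe set. Itgb3, an integrin chain, differed by 0.51 (SE 0.19), and Spn, which encodes CD43, by 0.51 (SE 0.23), with a lower Tcf1-/- mean on the other probe set of Spn. Cd27, a TNF receptor family member chosen after its values were seen, was at 11.3, 9.62 and 11.6 in Tcf1-/- and between 11.8 and 12.1 in Tcf1-/+.

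Close relatives of the members did not share their direction. Of 19 measured relatives and partners, such as the CD34 family, the Ly6 family and the SLAM family, 9 had lower and 10 higher Tcf1-/- means, with a median of 0.023. In 5 of them every array was under background. F2r, the thrombin receptor that activated protein C cleaves when bound to Procr, was at 12.0, 12.4 and 11.4 for Tcf1-/- and at 9.26, 9.54 and 8.62 for Tcf1-/+. Its difference of 2.80 (SE 0.36, adjusted p of 0.384 from limma) had the opposite sign to that of Procr. Thbd, thrombomodulin, differed by 0.75 (SE 0.33), and Ly9, of the SLAM family, by -0.67 (SE 0.33), or -0.41 without Tcf1-/+ replicate 2. Genotypes overlapped for Thbd and Ly9.

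Transcription factors of progenitors had lower Tcf1-/- means for 14 of 20 members, with a median of -0.23 and 0 called by limma after adjustment. Hoxa9 differed by -0.99 (SE 0.39), Bcl11a by -0.52 (SE 0.21) and Mef2c by -0.67 (SE 0.38). The first 2, and no other of the 20, did not overlap between genotypes, where 4.94% of all genes were lower in that way. Hoxa9 was at -0.64 without Tcf1-/- replicate 3, and Mef2c at -0.40 without Tcf1-/+ replicate 1. Without Tcf1-/- replicate 2 the count was again 14 of 20, with a median of -0.19. Over all arrays 6 of the 20 had higher Tcf1-/- means. The largest of these differences was that of Gata2, chosen after its values were seen, at 1.29 (SE 0.98) with overlap. It was 2.38 without Tcf1-/- replicate 2. For all genes, 45.7% had lower means over the 6 arrays.

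**Figure D5:**
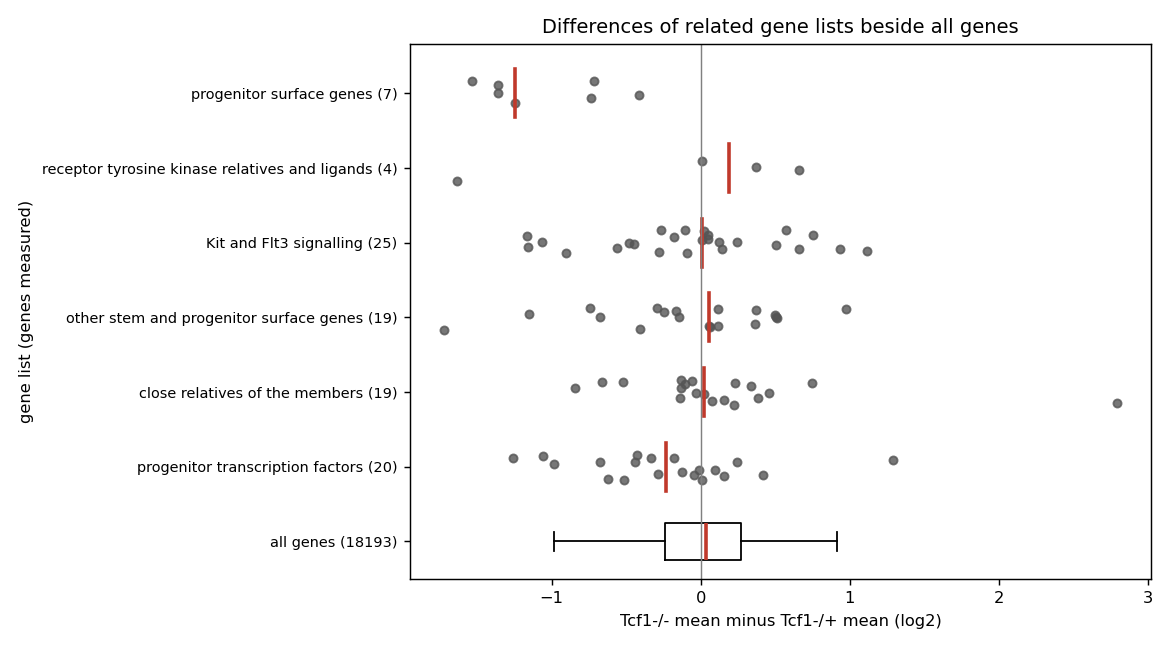
Tcf1-/- mean minus Tcf1-/+ mean (log2) of each gene of 6 lists, with a red line at each list's median, and a box for all 18193 genes (quartiles, whiskers at the 5th and 95th percentile). The 7 progenitor surface genes lie between -1.53 and -0.42, while the signalling, other surface and relative lists have medians of 0.011, 0.054 and 0.023. The scatter of points within a row along the vertical axis carries no value.

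Cd44 and Il2ra, which encodes CD25, are the other genes named in the sort gate. Cd44 differed by 0.12 (SE 0.30). Il2ra, selected against, differed by 0.69 (SE 0.50), and by 1.16 without Tcf1-/- replicate 1 and 0.34 without Tcf1-/- replicate 2. Ptprc, which encodes CD45 of blood cells and was listed with them, differed by 0.05 (SE 0.29). Differences of Cd44 and Ptprc were smaller than their errors, and with 1 array left out they ranged from -0.071 to 0.32 and from -0.15 to 0.25. Each of the 3 genes had 1 other probe set of opposite sign. Of 8 T-lineage progenitor markers, 6 had lower and 2 higher Tcf1-/- means. Il7r was at 2.00 (SE 0.40), Bcl11b at 0.62 (SE 0.32) and Hes1, a Notch target, at -0.50 (SE 0.27). Bcl11b was at 0.38 without Tcf1-/- replicate 1, and Hes1 at -0.27 without Tcf1-/- replicate 3. Ptcra, which marks later stages, was under background on all 6 arrays.

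Mast cells also carry Kit at their surface, and could enter a gate on kit. All 9 mast cell markers had higher Tcf1-/- means, the direction opposite to Kit, with a median of 1.13. Cpa3, a granule protease, was at 11.6, 10.9 and 12.2 for Tcf1-/- and at 10.6, 10.3 and 10.5 for Tcf1-/+, a difference of 1.10 (SE 0.37). Tpsab1, under background in Tcf1-/+, differed by 0.80 (SE 0.28) and Tpsb2 by 1.61 (SE 0.74). The list mean was 8.10, 7.21 and 8.57 in Tcf1-/- and 6.70, 6.82 and 7.17 in Tcf1-/+. It was lowest among the Tcf1-/- arrays on replicate 2, the array on which Kit was also lowest. Among the Tcf1-/+ arrays it was highest on replicate 3. There the brighter Kit probe set was at its lowest for that genotype, 9.83, and the other at its highest, 8.79. Mrgprb1 was under background on all 6 arrays. The part of mast cell RNA in the Kit level was not tested.

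Dendritic cells carry Flt3, although the Lin- kit+ gate would leave out those with lineage antigens or without Kit. The antigens behind Lin- are not given in the sources used here. Of 9 of their markers 5 had lower Tcf1-/- means, with a median of -0.43, and 7 had lower means without Tcf1-/- replicate 2, with a median of -0.73. Cd74, the class II invariant chain, differed by -1.61 (SE 0.46) without overlap, H2-Eb1 by -1.69 (SE 0.66) and Itgax by 1.13 (SE 0.69). Itgax was at 0.43 without Tcf1-/- replicate 2 and at 1.76 without Tcf1-/- replicate 1. The list mean was 6.77, 8.15 and 7.18 for Tcf1-/- and 6.79, 8.54 and 7.67 for Tcf1-/+. The genotypes overlapped for the list where they did not for Flt3. Tcf1-/+ replicate 1 had the lowest list mean of its genotype and also its lowest Flt3 level, 9.17. The highest list mean of Tcf1-/+ was on replicate 2, and its highest Flt3 level, 9.86, on replicate 3. Tcf1-/- replicate 1 had the lowest list mean of its genotype but its highest Flt3 level, 8.54. The part of dendritic cell RNA in the Flt3 level was not tested.

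Of 11 NK and innate lymphoid markers 8 had higher Tcf1-/- means, with a list mean between 7.68 and 8.40 in Tcf1-/- and between 6.37 and 6.98 in Tcf1-/+. Id2 differed by 3.19 (SE 0.49), Gzmb by 4.06 (SE 0.69) and Icos by 3.22 (SE 0.56). The 5 genes that follow were chosen from the list after their values were seen. Klrd1, an NK receptor chain, differed by -1.49 (SE 0.60) without overlap, and Eomes, an NK transcription factor under background in Tcf1-/-, by -0.75 (SE 0.68). Zbtb16, a factor of innate lymphocytes, differed by 0.013 (SE 0.23), and Ncr1 and Tbx21 had both means under background. Erythroid markers had higher means for 5 of 6, with Car1 at 3.41 (SE 1.52), Epor at 1.16 (SE 0.53) and Klf1 at 1.97 (SE 1.23). Epor was under background in Tcf1-/+ and at 0.59 without Tcf1-/- replicate 3. Klf1 was at 1.29, 1.20 and 3.42 without Tcf1-/+ replicates 1, 2 and 3. Myeloid markers had higher means for 6 of 8, with Ngp at 1.95 (SE 0.77), S100a8 at 2.64 (SE 1.14) and Csf3r at -0.77 (SE 0.67). Ngp was under background in Tcf1-/+ and at 1.16 without Tcf1-/- replicate 3, and S100a8 was at 1.58 without Tcf1-/+ replicate 1. Csf3r, under background in Tcf1-/-, ranged from -1.44 without Tcf1-/+ replicate 2 to -0.22 without Tcf1-/+ replicate 3, and was at -0.49 without Tcf1-/- replicate 2. B-lineage markers were divided, 3 lower and 4 higher, with Ms4a1 at 0.31 under background, Ighm at -1.60 (SE 1.23) and Pax5 at 0.52 (SE 0.45) with Tcf1-/+ under background. Ighm was at -0.30 and Pax5 at 0.022 without Tcf1-/- replicate 2, and Ighm at -2.50 without Tcf1-/- replicate 1. Signs were opposite on 9 of the other 10 probe sets of Ighm and on the 1 other of Pax5. Of 11 endothelial markers 5 were lower and 6 higher, with Egfl7 at -0.97 (SE 0.25), Vwf at 0.91 (SE 0.34) with Tcf1-/+ under background, and Cdh5 under background. Thymic epithelial markers had higher means for 5 of 6, with Krt5 at 1.10 (SE 0.73), Krt8 at 0.55 (SE 0.48) and Psmb11 under background. Krt5 was at 0.25 without Tcf1-/- replicate 3, and Krt8 at 0.018 without Tcf1-/- replicate 1 and 0.85 without Tcf1-/- replicate 3. Of 6 markers of later T cells 3 were lower and 3 higher, with Cd4 at 2.93 (SE 0.61), Cd2 at -2.40 (SE 0.65) and Cd5 at -1.13 (SE 0.38). None of these genes passed limma's adjusted threshold, and the part of these lineages in the members' values was not tested.

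The genes whose pattern over the 6 arrays was most like each member were found among 10628 genes whose mean exceeded that of the middle probe set on the array. Likeness was the root mean square difference of centred log2 levels over the 6 arrays. It was taken for the 5 members with a range of at least 1 log2 unit and a genotype mean above background. For Kit these were Ctla2a at 0.21 and Cep20 at 0.21, against a root mean square of 1.08 for Kit about its own mean. Both of these were lowest on Tcf1-/- replicate 2, at 8.65 and 9.09. For Flt3 they were Adgrl4, an adhesion receptor, at 0.26 and Pef1 at 0.28. For Cd34 they were Spc25, a kinetochore protein, at 0.15 and Ola1 at 0.16. For Cd93 they were Bfar at 0.12 and Ncoa3, a nuclear receptor coactivator, at 0.13, and for Procr Pde2a, a phosphodiesterase, at 0.16 and Nedd1 at 0.26. These are the smallest of 10628 values for each member and are descriptions only.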

How the data were processed

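RNA levels came from the authors' deposited table of log2 values per probe set, 1 column per array. The summary and normalization steps are not given in the sources used here. That the scale is log2 follows from the range of the values, 2.15 to 14.8. Array medians were between 5.80 and 5.87, and values were used as deposited. Control probe sets (64) were left out. Background was the 95th percentile, 5.21, of 27 control probe sets for bacterial transcripts. Arrays have no read depth, and their number limits the precision. The platform annotation named 1 gene for 34945 probe sets, several for 932 and none here for 9160. Gene identifiers of 34741 probe sets were found in the RefSeq table of GRCm38.p6. Columns not used numbered 0.

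The test was limma's (version 3.58.1, R 4.3.3; lmFit, eBayes, two-sided, no covariate) over all tested probe sets, with Benjamini-Hochberg adjustment and a threshold of 0.05; the fit was tested on simulated data. SEs and intervals are limma's. A gene is its probe set of highest mean. Lists were described by counts and medians, without a set test. Named genes are the members, the 3 genes of smallest unadjusted p in each list, and the 2 most alike for each member. The members and lists were chosen with earlier results of these data known. List genes that the annotation names for no probe set alone were not analysed here. Alternatives were the replicate block, quantile normalization, a common median, a filter and a floor at background, array weights, a variance trend, the Y-linked level as a covariate, each array left out and the mean over probe sets. Tcf7, the targeted gene, had no probe set named here, so the labels were not checked on it.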

Additional observations from a re-analysis of the deposited data

How the results depend on the processing

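The 14 member differences were recomputed under 14 alternatives, giving 191 values, of which 188 had the sign of the value reported and 3 had the opposite sign. The latter were the dimmest Cd93 probe set without Tcf1-/- replicate 3 (-0.15) and without Tcf1-/+ replicate 1 (-0.08), and Prom1 without Tcf1-/+ replicate 3 (1.00). With 1 array left out, these ranged from -0.15 to 0.54 for that Cd93 probe set and from -1.62 to 1.00 for Prom1. No member passed the adjusted threshold under any alternative, the lowest adjusted p being 0.514, and no alternative called any probe set. Flt3 lay between -1.80 and -1.12, Cd34 between -1.51 and -0.93 and Kit between -1.85 and -0.58. The median of the members lay between -1.41 and -0.58 when 1 array was left out, being -0.58 without Tcf1-/- replicate 2 and -0.86 without Tcf1-/+ replicate 3. Each array was also left out for the 48 genes named from the lists, an alternative chosen after seeing the data. Of these 288 values 4 had the opposite sign, those of Cd44 (range -0.071 to 0.32) and Ptprc (range -0.15 to 0.25), and 0 passed limma's adjusted threshold. The mean of 3 Y-linked genes was 5.0, 8.49 and 8.42 for Tcf1-/- and 4.07, 9.39 and 4.01 for Tcf1-/+. It exceeded the background of 5.21 on Tcf1-/- replicates 2 and 3 and on Tcf1-/+ replicate 2 only. Y-linked RNA was thus not evenly divided between the genotypes, and the arrays titled replicate 3 differed in it. With this mean as a covariate Flt3 differed by -1.44, Cd34 by -1.04 and Kit by -1.21. Whether equal replicate numbers pair the arrays cannot be settled from these values. Deviations from the group means correlated by 0.030, 0.045 and 0.012 for equal numbers 1, 2 and 3, and by -0.090 to 0.061 for different numbers. With the replicate block 3074 probe sets had an unadjusted p under 0.05 against 2917 without, 0 were called with either, and the members' median was -1.24. On the brightest probe sets the block lowered the SE of Procr from 0.66 to 0.32 and that of Cd34 from 0.36 to 0.24. It also lowered the SEs of Kit, Cd93 and Prom1, and raised those of Flt3 and Slamf1. The filter removed Prom1 and Slamf1.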
